A study of Homo sapiens with 18 samples.

Results

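The genes described here are HMOX1 and 8 genes around the transcription factor NRF2, namely NQO1, GCLM, GCLC, TXNRD1, SRXN1, SLC7A11, NFE2L2 and KEAP1. They were picked by gene symbol, 9 of the 20802 genes counted in each library, and the choice was made with the difference of HMOX1 between Tsg101 and Vps28 depletion in these libraries already known. The levels of HMOX1, and the difference of every member between the depletions, are therefore given as a description without a test.

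RKO cells, an established human colorectal carcinoma line, were transfected with 30 nM of siRNA and harvested 72 h later. The 6 groups of 3 replicates received the nontargeting siCtrl#1 or siCtrl#2, siTsg101#1 or siTsg101#2 against Tsg101, or siVps28#1 or siVps28#2 against Vps28. Tsg101 and Vps28 are subunits of ESCRT-I, an endosomal sorting complex that delivers membrane proteins to lysosomes. Each replicate number is also a batch that holds 1 library of every siRNA. All groups are of a single cell line, and the depletion was transient and partial.

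The libraries held 2561790 to 7466916 gene counts each. TSG101 transcripts were left at 3.48% of the siCtrl#1 level with siTsg101#1 and at 2.89% with siTsg101#2, and VPS28 transcripts at 5.63% with siVps28#1 and at 5.95% with siVps28#2, so that the siRNAs of each pair lowered their target to a similar extent. Each siRNA left the other subunit's transcript at 89.9% to 99.9% of the siCtrl#1 level. These values are of transcripts only. The paper reports that depletion of either subunit also strongly lowered the protein of the other, which it ascribes to loss of ESCRT-I stability. The epithelial markers KRT8, KRT18, EPCAM and CDX2 were read in every library, CDH1 had 0 counts and VIL1 had 6 counts in all libraries together, and no leukocyte, fibroblast or endothelial marker of the list reached more than 11 counts in a library.

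NRF2 is encoded by NFE2L2 and is held low by KEAP1, an adaptor that hands it to a Cullin 3 ubiquitin ligase for destruction. When cysteines of KEAP1 are modified by electrophiles or oxidants, or when KEAP1 is sequestered by the autophagy receptor p62, NRF2 accumulates, pairs with a small MAF protein and binds antioxidant response elements, short sites that the heme-regulated repressor BACH1 can occupy in its place. The target genes make and use glutathione, reduce thioredoxin and peroxiredoxins, supply NADPH, detoxify quinones and break down heme.

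The best known of these sites share a core of the letters TGACNNNGC. To show where such letters stand near the members, the window from 250 bases before to 50 bases after each annotated start was taken from RefSeq (GRCh38.p14), which had windows for 7 of the 9 members, 10 windows in all, and none for HMOX1 and SLC7A11. The core, read on both strands, was present in 4 of the 10 windows, those of GCLM, of TXNRD1 at both starts and of KEAP1 at 1 of its starts, against 13.3% of the 35116 windows of all genes. The E-box CACGTG and the AP-1 letters TGANTCA were in none of the members' windows, against 7.26% and 7.71% of all windows. The 250 bases before the start are shown for 4 members, 5′ to 3′, with the core in capitals. GCLM and GCLC are shown because they encode the subunits of the same enzyme and moved differently, NQO1 because its levels ran closest to those of HMOX1, and KEAP1 because its window holds the core at 2 places. A TXNRD1 window also holds it at 2 places, and is not shown because TXNRD1 could not be compared.
GCLM, chr1:93909431-93909680, minus strand: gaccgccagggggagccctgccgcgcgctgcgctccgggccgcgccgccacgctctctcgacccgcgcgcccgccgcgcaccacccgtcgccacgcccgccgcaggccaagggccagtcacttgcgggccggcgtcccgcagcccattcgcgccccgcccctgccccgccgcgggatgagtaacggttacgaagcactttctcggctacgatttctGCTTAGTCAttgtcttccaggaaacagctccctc
KEAP1, chr19:10502772-10503021, minus strand: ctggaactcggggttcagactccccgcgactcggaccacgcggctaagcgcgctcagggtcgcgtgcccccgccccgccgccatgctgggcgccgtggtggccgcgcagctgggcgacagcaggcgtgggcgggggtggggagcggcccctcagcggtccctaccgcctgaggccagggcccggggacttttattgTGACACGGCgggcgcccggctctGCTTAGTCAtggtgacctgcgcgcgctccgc
GCLC, chr6:53545102-53545351, minus strand: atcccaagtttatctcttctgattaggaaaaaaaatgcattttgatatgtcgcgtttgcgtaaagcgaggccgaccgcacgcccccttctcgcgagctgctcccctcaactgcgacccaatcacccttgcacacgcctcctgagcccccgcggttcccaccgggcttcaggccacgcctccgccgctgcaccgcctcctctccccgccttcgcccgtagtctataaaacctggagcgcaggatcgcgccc
NQO1, chr16:69726561-69726810, minus strand: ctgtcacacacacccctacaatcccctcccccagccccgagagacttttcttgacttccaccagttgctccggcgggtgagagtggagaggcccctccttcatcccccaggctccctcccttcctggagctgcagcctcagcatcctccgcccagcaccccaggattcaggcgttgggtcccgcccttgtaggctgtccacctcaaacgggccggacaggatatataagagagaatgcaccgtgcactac
With the start base counted as 0, the core of GCLM lay at -34 to -26, and those of KEAP1 at -54 to -46 and at -31 to -23. The same 9 letters, GCTTAGTCA, stood in the windows of GCLM and KEAP1. GCLC, NQO1, SRXN1 and NFE2L2 held no match in these windows, which says only that the letters are not there.

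HMOX1 encodes heme oxygenase-1, the inducible enzyme that opens the heme ring and releases biliverdin, carbon monoxide and iron. The gene lies on chromosome 22 at positions 35776354 to 35790207 of GRCh37, overlaps no other gene's exons and was read 146 to 1133 times per library. Levels are given as CPM, the counts scaled to a common library size with TMM normalization, and are compared between libraries for each gene and not between genes. HMOX1 stood at 64.1, 69.5 and 69.9 CPM in the siCtrl#1 libraries and at 70.4, 62.5 and 70.2 CPM with siCtrl#2. It stood at 59.6, 70.9 and 72 CPM with siTsg101#1 and at 134, 109 and 126 CPM with siTsg101#2. With siVps28#1 it reached 187, 205 and 172 CPM, and with siVps28#2 it reached 184, 176 and 179 CPM. The nontargeting libraries thus spanned 62.5 to 70.4 CPM, and of the siTsg101#1 libraries 1 lay just below and 2 just above that span. Those of siTsg101#2 lay above all of these, and those of both Vps28 siRNAs lay above all others.

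The order of the group means was siTsg101#1 (67.5 ± 6.87 CPM, SD, n = 3), siCtrl#2 (67.7 ± 4.48) and siCtrl#1 (67.8 ± 3.25), which overlapped, then siTsg101#2 (123 ± 12.3), then siVps28#2 (179 ± 4.11) and siVps28#1 (188 ± 16.2), which overlapped. On the log2 scale HMOX1 differed from siCtrl#1 by -0.001 with siTsg101#1 and by 0.86 with siTsg101#2. For siVps28#1 and siVps28#2 the differences were 1.47 and 1.40, and all 4 had standard errors (SE) of 0.137 to 0.14. The mean of both Tsg101 siRNAs was 1.01 below that of both Vps28 siRNAs (log2, SE 0.097), and the difference was -1.05, -1.10 and -0.88 within batches 1, 2 and 3. In bulk RNA, fewer expressing cells and less RNA per cell cannot be told apart.

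**Figure D1:**
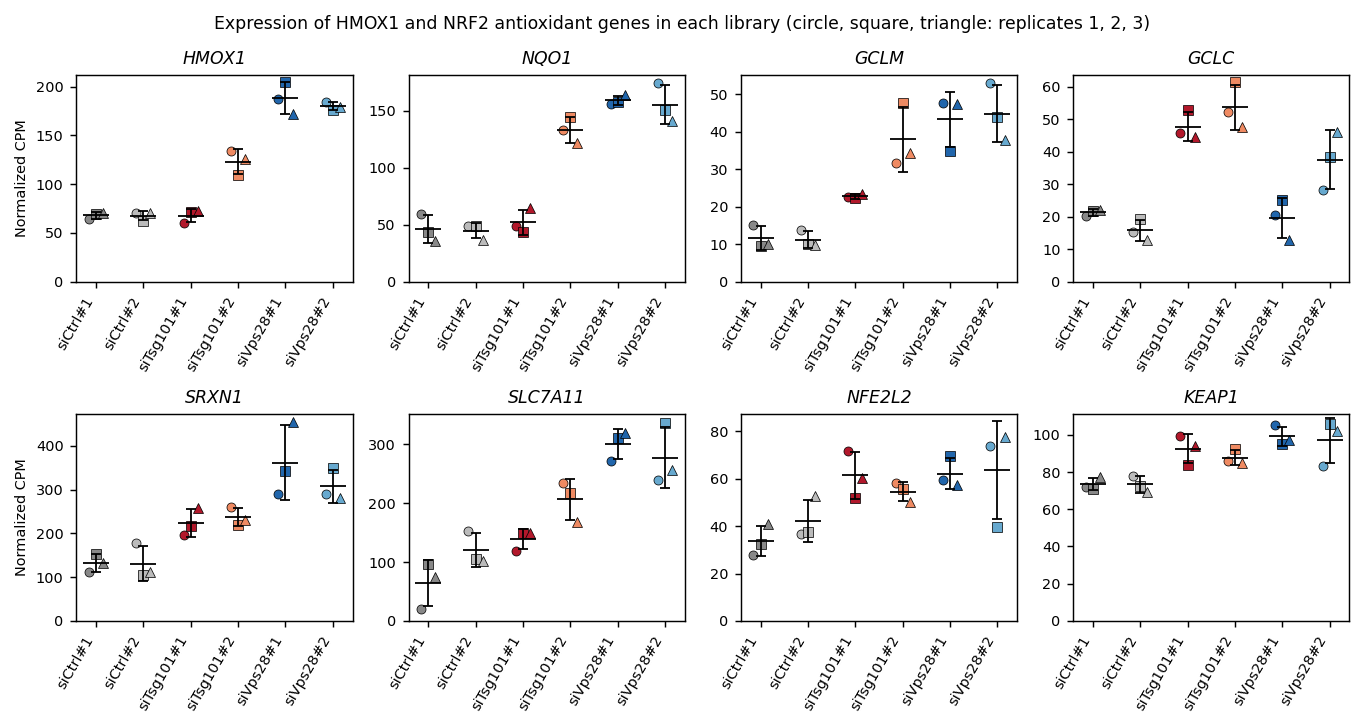
Normalized CPM (TMM-scaled, linear axis from 0) of 8 members in each of the 18 libraries, by siRNA; circles, squares and triangles are replicates 1, 2 and 3, and bars show the mean and SD of 3 libraries. HMOX1 and NQO1 stay near the nontargeting level with siTsg101#1 and are highest with both Vps28 siRNAs, whereas GCLC is highest with the Tsg101 siRNAs.

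NQO1, the quinone reductase long used as a marker of NRF2 activity, showed the same order of the 4 on-target siRNAs as HMOX1. It lies on chromosome 16 at 69740899 to 69760571 (GRCh37), and 575 bases of its exons overlap a gene on the opposite strand. Its levels were 59.8, 43.7 and 35.8 CPM with siCtrl#1 and 48.6, 43.6 and 64.3 CPM with siTsg101#1, ranges that overlapped. They were 133, 145 and 122 CPM with siTsg101#2, 156, 158 and 164 CPM with siVps28#1, and 175, 151 and 141 CPM with siVps28#2, all above every nontargeting library. NQO1 rose with siTsg101#2 (log2 fold change 1.52, SE 0.184, edgeR adjusted p = 2.89e-06), with siVps28#1 (1.78) and with siVps28#2 (1.75), and did not pass with siTsg101#1 (0.18, SE 0.187, edgeR adjusted p = 0.507). The difference between the Tsg101 siRNAs was itself significant (siTsg101#1 minus siTsg101#2 -1.34, SE 0.183, edgeR adjusted p = 6.34e-05), and it kept its call with each library left out. The mean of the Tsg101 siRNAs was 0.91 below that of the Vps28 siRNAs (SE 0.127), and below it in all 3 batches (-1.04, -0.95 and -0.78).

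Glutamate-cysteine ligase, the rate-limiting enzyme of glutathione synthesis, has a catalytic subunit encoded by GCLC (chromosome 6, 53362139 to 53481768 of GRCh37) and a modifier subunit encoded by GCLM (chromosome 1, 94350755 to 94375012). GCLM was 15.2, 9.54 and 9.93 CPM with siCtrl#1 and 22.5, 22.3 and 23.4 CPM with siTsg101#1. With siTsg101#2 it was 31.7, 47.7 and 34.4 CPM, with siVps28#1 47.6, 34.9 and 47.5 CPM, and with siVps28#2 53, 43.8 and 37.7 CPM. All 12 on-target libraries lay above all 6 nontargeting ones, and those of siTsg101#1 were the lowest of the 12. GCLM rose after Tsg101 depletion (1.34, SE 0.204, edgeR adjusted p = 3.67e-05) and after Vps28 depletion (1.93, SE 0.204, edgeR adjusted p = 7.6e-07), and was 0.58 lower after Tsg101 than after Vps28 depletion (SE 0.145), with within-batch differences of -0.90, -0.26 and -0.57. It was also lower with siTsg101#1 than with siTsg101#2 (-0.73, edgeR adjusted p = 0.0304), a call that ended when any of 4 libraries was left out (siTsg101#1 replicates 1, 2 and 3 and siTsg101#2 replicate 2, adjusted p = 0.0731 to 0.177).

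GCLC departed from this order. It was 20.2, 21.8 and 22.1 CPM with siCtrl#1 and 15.2, 19.3 and 12.9 CPM with siCtrl#2. It was 45.7, 52.8 and 44.5 CPM with siTsg101#1 and 52.1, 61.3 and 47.5 CPM with siTsg101#2, more than in any nontargeting library. With siVps28#1 it was 20.5, 25.1 and 12.9 CPM, within or near the nontargeting range, and with siVps28#2 it was 28.1, 38.4 and 46.1 CPM. GCLC rose after Tsg101 depletion (1.24, SE 0.196, edgeR adjusted p = 5.62e-05), to a similar level with both siRNAs (siTsg101#1 minus siTsg101#2 -0.17, edgeR adjusted p = 0.683). For Vps28 depletion the mean change of 0.34 did not pass the test (SE 0.195, edgeR adjusted p = 0.268), and the siRNAs stood apart, at -0.14 with siVps28#1 (edgeR adjusted p = 0.788) and at 0.81 with siVps28#2 (edgeR adjusted p = 0.012). The difference between the Vps28 siRNAs (-0.95, SE 0.22) just missed the threshold (edgeR adjusted p = 0.0508). It passed in 4 of 7 other settings. These were the replicate number as a block (-0.96, edgeR adjusted p = 0.0212), DESeq2 (DESeq2 adjusted p = 0.0101), no filter on low counts (edgeR adjusted p = 0.00261) and 10 counts in every library (edgeR adjusted p = 0.0468). With a library left out it passed in 2 of 18 fits, those without siCtrl#2 replicate 1 or siVps28#2 replicate 1. The call with siVps28#2 ended without siCtrl#1 replicate 1 (0.77, adjusted p = 0.0533) or without siVps28#2 replicate 3 (0.64, adjusted p = 0.0763, edgeR). With siCtrl#2 as the reference, the mean change for Vps28 depletion passed (0.78, edgeR adjusted p = 0.0149).

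GCLC was the single member with a higher level after Tsg101 than after Vps28 depletion, by 0.90 (SE 0.151), and it was higher in every batch (1.01, 0.86 and 0.90). The means of GCLC and GCLM therefore lay in opposite order between the depletions, which is a description without a test. In both genes the Tsg101 and Vps28 libraries overlapped. GCLM averaged 22.7 CPM with siTsg101#1 and 37.9 CPM with siTsg101#2, and GCLC 19.5 CPM with siVps28#1 and 37.5 CPM with siVps28#2. Of the GCLC transcript's stretches of 50 bases, 6.35% occur in other genes, and its exons overlap 305 bases of the antisense gene GCLC-AS1. The amplicon that was read and the strand setting of the counting are not given in the sources used here.

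**Figure D2:**
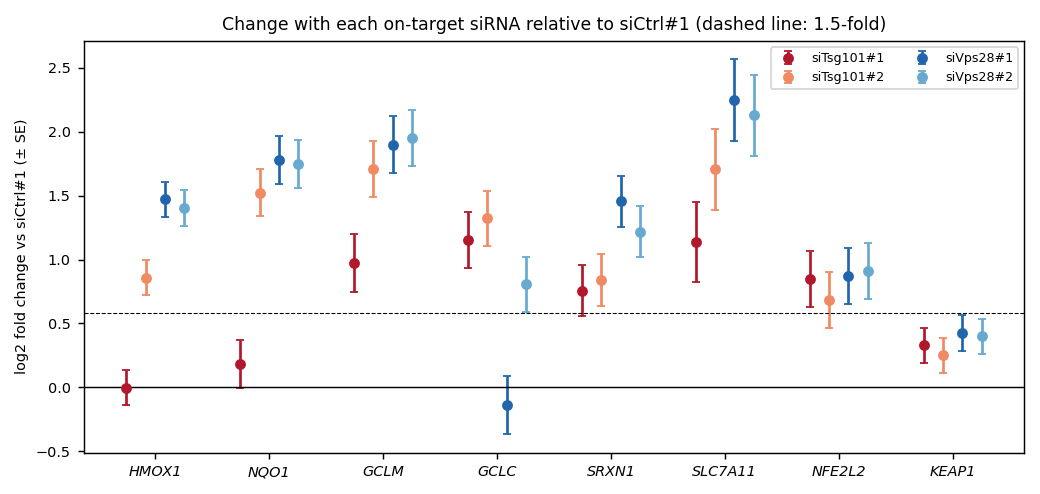
Log2 fold change relative to siCtrl#1 of 8 members with each of the 4 on-target siRNAs, as points with the SE of the edgeR fit over 3 libraries a group; the dashed line marks 1.5-fold. HMOX1 and NQO1 are near 0 with siTsg101#1 only, GCLC is near 0 with siVps28#1 only, and NFE2L2 and KEAP1 are alike with all 4 siRNAs.

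SLC7A11 encodes the light chain of the cystine/glutamate antiporter, which imports the cystine needed for glutathione. It lies on chromosome 4 at 139085251 to 139163503 (GRCh37) and shares 865 exon bases with the antisense gene SLC7A11-AS1. The siCtrl#1 libraries disagreed, at 20.2, 96 and 74.8 CPM (89, 312 and 437 counts), and the siCtrl#2 libraries were at 153, 105 and 102 CPM. The levels were 119, 149 and 149 CPM with siTsg101#1 and 234, 218 and 168 CPM with siTsg101#2. They were 272, 311 and 319 CPM with siVps28#1 and 239, 336 and 257 CPM with siVps28#2, and every Vps28 library lay above every Tsg101 library. SLC7A11 rose against siCtrl#1 after Tsg101 depletion (1.42, SE 0.284, edgeR adjusted p = 0.00068) and after Vps28 depletion (2.19, SE 0.294, edgeR adjusted p = 1.72e-05). Both calls held without the low siCtrl#1 replicate 1, at 1.00 (edgeR adjusted p = 0.00129) and 1.76 (edgeR adjusted p = 1.14e-05). Against siCtrl#2 the call for Tsg101 depletion was lost (0.50, edgeR adjusted p = 0.199) and that for Vps28 depletion was kept (1.26, edgeR adjusted p = 0.00387). The difference between the depletions uses no nontargeting library and was -0.77 (SE 0.214), or -0.61, -0.84 and -0.86 by batch.

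SRXN1 encodes sulfiredoxin, which repairs overoxidized peroxiredoxins, and lies on chromosome 20 at 627259 to 633844 (GRCh37). It ranged from 111 to 154 CPM with siCtrl#1, from 104 to 178 CPM with siCtrl#2, from 196 to 260 CPM over the 6 Tsg101 libraries and from 282 to 455 CPM over the 6 Vps28 libraries, with no overlap between the nontargeting, Tsg101 and Vps28 libraries. It rose after Tsg101 depletion (0.80, SE 0.179, edgeR adjusted p = 0.00184) and after Vps28 depletion (1.34, SE 0.183, edgeR adjusted p = 2.22e-05), alike with siTsg101#1 (0.76) and siTsg101#2 (0.84). The difference between the depletions was -0.54 (SE 0.14), and -0.36, -0.67 and -0.56 by batch. Of the SRXN1 transcript's stretches of 50 bases, 90.6% also belong to ENSG00000270299, a gene annotated on the same strand, so that its counts could include reads of that gene.

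TXNRD1, the cytosolic thioredoxin reductase gene at positions 104609557 to 104744085 of chromosome 12 (GRCh37), could not be compared. Its target received 9 reads in all 18 libraries together, 0 to 3 per library, and was removed by the minimum of 100 counts, so that 8 of the 9 members entered the fit. Other listed targets were as empty, with 1 read each for PRDX1 and MAFG. Whether these targets read poorly or the transcripts were scarce was not tested.

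NFE2L2, the gene of NRF2 itself, lies on chromosome 2 at 178083395 to 178257484 (GRCh37). It was 27.9, 32.6 and 40.7 CPM with siCtrl#1 and 36.6, 37.6 and 52.5 CPM with siCtrl#2. It ranged from 50.2 to 71.8 CPM over the Tsg101 libraries (median 56.8) and from 39.7 to 77.5 CPM over the Vps28 libraries (median 64.5), whose lowest library, siVps28#2 replicate 2, lay within the nontargeting range. NFE2L2 rose after Tsg101 depletion (0.77, SE 0.195, edgeR adjusted p = 0.00517) and after Vps28 depletion (0.89, SE 0.196, edgeR adjusted p = 0.00261), and each of the 4 siRNAs passed alone (0.69 to 0.91). The call with siTsg101#2 ended without siCtrl#1 or siTsg101#2 replicate 1 or 2, and that with siVps28#1 without siCtrl#1 replicate 1 or 2 or siVps28#1 replicate 2 (adjusted p = 0.0528 to 0.124, edgeR). With siCtrl#2 as the reference neither depletion passed (0.45, adjusted p = 0.0998, and 0.57, adjusted p = 0.0604, edgeR). The depletions differed by -0.12 (SE 0.15), with a sign that varied between batches (-0.04, 0.03 and -0.27). NFE2L2 exons overlap 3710 bases of genes on the opposite strand, AGPS and HNRNPA3 among them, and 2037 bases of ENSG00000213963 on the same strand. Of the transcript's stretches of 50 bases, 15.2% occur in other genes.

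KEAP1 lies on chromosome 19 at 10596801 to 10614234 (GRCh37) and overlaps no other gene's exons. It stood at 71.1 to 77.4 CPM with siCtrl#1, at 69.3 to 78 CPM with siCtrl#2, at 84 to 99.6 CPM over the Tsg101 libraries and at 83.2 to 106 CPM over the Vps28 libraries. Every on-target library was above every nontargeting one, yet the differences of 0.29 (SE 0.121, edgeR adjusted p = 0.0779) and 0.41 (SE 0.122, edgeR adjusted p = 0.0209) did not reach 1.5-fold, and the first also missed the p threshold. The depletions differed by -0.12 (SE 0.097).

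Counted together, 6 of the 7 members tested against siCtrl#1 rose after Tsg101 depletion, where 10.9% of all tested genes were called higher, and 5 of 7 rose after Vps28 depletion, where the share was 6.3%. HMOX1 was left out of these counts, KEAP1 was not called in either, and GCLC was not called after Vps28 depletion. The call of NQO1 after Tsg101 depletion is of the mean of both siRNAs (0.85). It came from siTsg101#2 (1.52), and siTsg101#1 alone did not pass (0.18). By single siRNA, 5 of 7 rose with siTsg101#1 (11.6% of all genes), 6 with siTsg101#2 (10.1%), 5 with siVps28#1 (4.85%) and 6 with siVps28#2 (7.09%). The median change of the 8 measured members, HMOX1 included, was 0.83 after Tsg101 and 1.39 after Vps28 depletion (log2), against -0.01 and 0.01 over all tested genes. The nontargeting siRNAs called 0 of 8 members different from each other in edgeR and in DESeq2, against 1.4% of all genes higher and 0.664% lower with siCtrl#2, and 1 member, SLC7A11, had an unadjusted p under 0.05 (log2 difference 0.92, edgeR adjusted p = 0.143). That difference was 0.50 without the low siCtrl#1 replicate 1, and 0.50 to 1.32 over all libraries left out in turn.

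Between the siRNAs of a pair, 2 of the 7 tested members, NQO1 and GCLM, were lower with siTsg101#1 than with siTsg101#2, where 3.74% of all genes were. Between the Vps28 siRNAs edgeR called 0 of 7, against 0.273% of all genes lower with siVps28#1. GCLC was the 1 member with an unadjusted p under 0.05 there, and DESeq2 called it.

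The difference between the depletions chose the members, and its counts are given as such. The Tsg101 mean was below the Vps28 mean in 7 of the 8 measured members, with a median difference of -0.56 against -0.02 over all tested genes. In HMOX1, SRXN1 and SLC7A11 all 6 Tsg101 libraries lay below all 6 Vps28 libraries, an order that 1.74% of all tested genes showed. GCLM, SRXN1, SLC7A11 and KEAP1 had all 12 on-target libraries above all 3 siCtrl#1 libraries (5.87% of all genes), and GCLM, SRXN1 and KEAP1 above all 6 nontargeting libraries (1.96%).

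**Figure D3:**
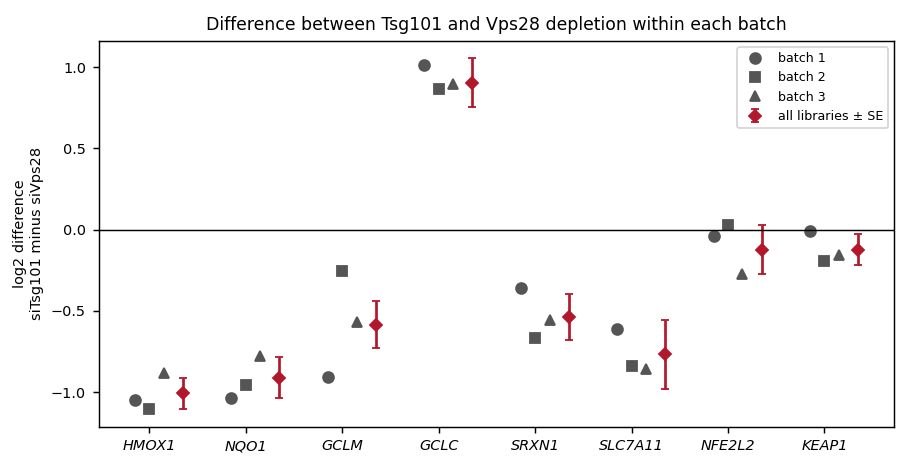
Log2 difference between the mean of both Tsg101 siRNAs and the mean of both Vps28 siRNAs for 8 members, within each of the 3 batches (grey) and over all libraries with the SE of the fit (red diamonds). HMOX1, NQO1, GCLM, SRXN1 and SLC7A11 are below 0 and GCLC is above 0 in every batch, and NFE2L2 crosses 0.

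The level of HMOX1 over the 18 libraries, on the log2 scale, ran closest to that of NQO1 (Pearson's r 0.936), and no other tested gene had a higher value. Among the members, GCLM (0.842), SRXN1 (0.826) and SLC7A11 (0.775) followed, with 13, 22 and 41 tested genes at a higher value. Then came KEAP1 (0.655) and NFE2L2 (0.536), with 215 and 578 genes at a higher value. GCLC was last (0.117), with 3999. Among the closest genes outside the members were PGD (0.898), RAP2B (0.885), TMEM167B (0.878) and TIPRL (0.869). PGD encodes an NADPH-forming dehydrogenase of the pentose phosphate pathway. The points share the same libraries and siRNA groups, so that these values describe likeness of pattern over 6 groups.

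A list of 40 further NRF2 target genes, none of them members, was read in the same fit. The list was chosen with earlier results of these data known, so that its counts are no separate evidence. Of these, 28 passed the count minimum, 10 rose and 0 fell after Tsg101 depletion (background 10.9% higher and 8.5% lower), and 9 rose and 0 fell after Vps28 depletion (background 6.3% higher and 5.93% lower). DESeq2 also called none lower, and 2 genes after Tsg101 and 0 after Vps28 depletion had an unadjusted p under 0.05 in that direction. Their median change was 0.39 after either depletion, against -0.01 and 0.01 over all tested genes. Between the nontargeting siRNAs edgeR called 0 of them, DESeq2 called 1 lower, and 4 had an unadjusted p under 0.05. The 12 listed genes below the minimum were GPX2, ABCC2, ABCC3, PRDX1, ME1, AKR1B10, AKR1C1, AKR1C2, AKR1C3, ALDH3A1, UGT1A6 and MAFG.

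The feedback genes OSGIN1, an inhibitor of growth under oxidative stress, and PIR, which encodes the iron-binding protein pirin, had a lower mean after Tsg101 than after Vps28 depletion, as most members did. OSGIN1 was 7.43 ± 2.26 CPM with siCtrl#1, 19.8 ± 3.52 and 28.6 ± 1.8 CPM with the Tsg101 siRNAs, and 41.7 ± 6.31 and 36.8 ± 8.58 CPM with the Vps28 siRNAs (SD, n = 3 each). It rose after both depletions (1.63 and 2.35) and was lower after Tsg101 than after Vps28 depletion (-0.72, SE 0.146, edgeR adjusted p = 0.00154). PIR stood at 2.08 ± 0.0603 CPM with siCtrl#1, at 5.56 ± 0.982 and 12.7 ± 3.78 CPM with siTsg101#1 and siTsg101#2, and at 16.3 ± 6.34 and 11.9 ± 0.466 CPM with siVps28#1 and siVps28#2, so that the mean of siTsg101#2 was above that of siVps28#2. It rose after both depletions (2.03 and 2.73) with a difference of -0.71 (SE 0.202, edgeR adjusted p = 0.0228), and it was also lower with siTsg101#1 than with siTsg101#2 (-1.14, edgeR adjusted p = 0.0186). The difference of PIR between the depletions lost its call without siTsg101#1 replicate 1, siTsg101#2 replicate 1 or 2, or siVps28#1 replicate 3 (adjusted p = 0.0542 to 0.0968, edgeR).

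Among the genes of glutathione synthesis, use and export, MGST1, a membrane-bound glutathione transferase, rose from 254 ± 20.9 CPM with siCtrl#1 to 607 to 772 CPM in the means of the 4 on-target siRNAs, by 1.48 after Tsg101 and 1.29 after Vps28 depletion, and the depletions did not differ beyond error (0.18, SE 0.115, edgeR adjusted p = 0.336). GSR, the glutathione reductase, and GLRX, glutaredoxin, rose after Vps28 depletion, so that 3 of the 7 measured genes of this group did (background 6.3%). After Tsg101 depletion 1 of 7 rose (background 10.9%), and edgeR called none of the 7 between the depletions, where GSR differed by -0.395 (edgeR adjusted p = 0.0333) and stayed under 1.5-fold. TXN and PRDX6, of the thioredoxin and peroxiredoxin group, were called in neither comparison.

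In the NADPH supply group, PGD rose after Vps28 depletion (0.82, edgeR adjusted p = 9.12e-05) and stayed under 1.5-fold after Tsg101 depletion (0.43, edgeR adjusted p = 0.013). The difference of PGD, -0.39, had an adjusted p of 0.0126 in edgeR and was under 1.5-fold as well. TALDO1, another enzyme of the pentose phosphate pathway, also rose after Vps28 depletion.

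The group listed as heme breakdown and iron storage also held FECH, a gene of heme synthesis. Of the group's 6 measured genes, 3 rose after Tsg101 depletion (background 10.9%), FECH among them, and 1 rose after Vps28 depletion (background 6.3%). FECH encodes ferrochelatase, which inserts iron into the heme ring as the last step of heme synthesis. It stood at 11.2 ± 1.85 CPM with siCtrl#1, 44.9 ± 12.3 and 39.6 ± 3.62 CPM with the Tsg101 siRNAs, and 15.6 ± 6.98 and 13.4 ± 4.9 CPM with the Vps28 siRNAs. FECH rose after Tsg101 depletion (1.92, SE 0.265, edgeR adjusted p = 1.16e-05), did not pass after Vps28 depletion (0.38, SE 0.266, edgeR adjusted p = 0.373), and differed between them by 1.54 (SE 0.197, edgeR adjusted p = 7.54e-06). The ferritin heavy chain gene FTH1 rose after both depletions, and BLVRA, which reduces biliverdin, rose after Tsg101 depletion, as did the detoxification genes UGDH, CBR1 and PTGR1. In all, 1 of the 28 genes was called higher and 2 lower after Tsg101 than after Vps28 depletion, against 4.12% and 2.08% of all genes.

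**Figure D4:**
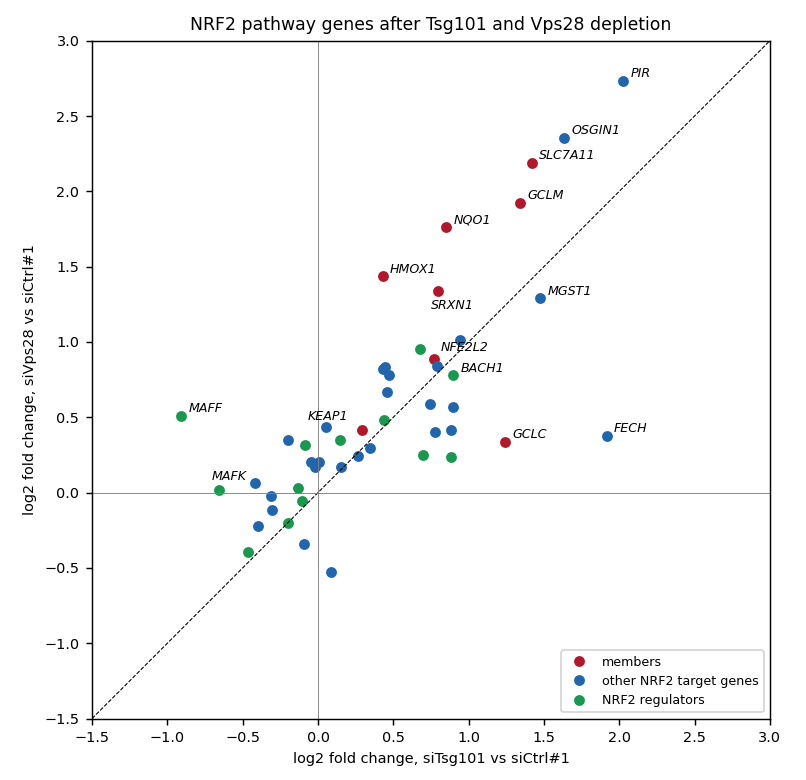
Log2 fold change relative to siCtrl#1 after Tsg101 depletion (horizontal axis) and after Vps28 depletion (vertical axis) for 8 members, 28 other NRF2 target genes and 13 NRF2 regulators, with equal change on the dashed line. HMOX1, NQO1, SLC7A11, PIR and OSGIN1 lie above the line, and GCLC and FECH lie below it; both axes share the siCtrl#1 libraries.

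Of 14 genes that act on NRF2 or share its sites, 13 were measured. SQSTM1, which encodes p62, and the repressor gene BACH1 rose after both depletions. SQSTM1 was 1320 ± 324 CPM with siCtrl#1 and 1870 to 2690 CPM in the means of the on-target siRNAs (0.68 and 0.95), and its call after Tsg101 depletion ended without siCtrl#1 replicate 1 (0.49, adjusted p = 0.0202, edgeR). BACH1 was 12.3 ± 1.97 CPM with siCtrl#1 and 19.3 to 24.6 CPM in the on-target means (0.90 and 0.78), and its call after Vps28 depletion was lost against siCtrl#2 (0.52, adjusted p = 0.0722, edgeR).

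The small MAF genes, whose products pair with NRF2 and with BACH1, differed between the depletions. MAFK fell after Tsg101 depletion (-0.66, SE 0.225, edgeR adjusted p = 0.0317), was 0.01 from siCtrl#1 after Vps28 depletion, and differed by -0.67 (SE 0.186, edgeR adjusted p = 0.0192). MAFF differed by -1.42 (SE 0.326, edgeR adjusted p = 0.00492) at 5 to 38 counts per library. It averaged 3.08 ± 1.13 CPM with siCtrl#1, 2.66 ± 0.37 CPM with siTsg101#1 and 0.999 ± 0.212 CPM with siTsg101#2. With siVps28#1 and siVps28#2 it averaged 4.65 ± 1.91 and 4.03 ± 1.26 CPM. Its difference from siCtrl#1 after Tsg101 depletion (-0.91, adjusted p = 0.111, edgeR) passed only with the replicate number as a block (-0.94, adjusted p = 0.0411, edgeR) or with siCtrl#2 in the reference. The related factor gene NFE2L3 and the coactivator gene EP300 rose after Tsg101 depletion (0.88 and 0.70). NFE2L3 was higher after Tsg101 than after Vps28 depletion by 0.64, which missed the threshold (edgeR adjusted p = 0.0533) and passed with the replicate block (0.65, edgeR adjusted p = 0.0298). In all, 4 of the 13 regulators rose and 1 fell after Tsg101 depletion (background 10.9% higher and 8.5% lower), so that the share that fell was near the background. After Vps28 depletion 2 rose and 0 fell (background 6.3% and 5.93%; DESeq2 also 0, and 0 at an unadjusted p under 0.05). Between the depletions 2 were lower after Tsg101 depletion (background 2.08%). Against siCtrl#1, the call of MAFK ended without any one of the siCtrl#1 libraries, without siTsg101#1 replicate 1 and without siTsg101#2 replicate 2, and with siCtrl#2 as the reference. Its call between the depletions ended without siTsg101#1 replicate 1, siTsg101#2 replicate 2, siVps28#1 replicate 3 or siVps28#2 replicate 2 (adjusted p = 0.0521 to 0.0954, edgeR). The call of EP300 ended without siCtrl#1 replicate 1 or 2 and that of NFE2L3 without siCtrl#1 replicate 2 or 3 (adjusted p = 0.0656 to 0.106, edgeR), and EP300 did not pass against siCtrl#2 (0.43).

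Of 16 other antioxidant enzymes, 2 rose and 2 fell after each depletion, against 10.9% higher and 8.5% lower of all genes after Tsg101 depletion, which is near the listed genes' share, and 6.3% and 5.93% after Vps28 depletion. SOD2, the mitochondrial superoxide dismutase, rose from 163 ± 19.1 CPM with siCtrl#1 to 982 ± 509 and 577 ± 110 CPM with the Tsg101 siRNAs and 492 ± 80.6 and 508 ± 28.9 CPM with the Vps28 siRNAs (2.21 and 1.62). Its difference between the depletions (0.59, SE 0.171, edgeR adjusted p = 0.0253) fell under 1.5-fold with the replicate block (0.56) and to 0.35 without siTsg101#1 replicate 1 (adjusted p = 0.117, edgeR), and the call also ended without siTsg101#2 replicate 1, siVps28#1 replicate 1 or 3, or siVps28#2 replicate 2. GPX3, a secreted glutathione peroxidase read at 0.482 to 2.85 CPM in the group means, also rose after both, but in DESeq2, against siCtrl#2 and without any one of 5 libraries (the 3 of siCtrl#1, siVps28#1 replicate 1 and siVps28#2 replicate 1) its call after Vps28 depletion was lost (adjusted p = 0.0692 to 0.196). GPX1 fell after both depletions (-0.64 and -0.73), TXNRD2 after Tsg101 depletion (-0.70) and catalase (CAT) after Vps28 depletion (-0.70). Against siCtrl#2 these calls were lost for TXNRD2 (-0.53) and CAT (-0.46), and for GPX1 after Tsg101 depletion (-0.53), which was also lost without siCtrl#1 replicate 1, as was TXNRD2 without siTsg101#2 replicate 2. The median change was -0.25 after Tsg101 and -0.08 after Vps28 depletion.

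Of the 7 enzymes of heme synthesis before FECH, UROS and ALAD were among those that fell after Tsg101 depletion (-1.005 and -0.82, background 8.5%) and UROS fell after Vps28 depletion (-0.88, background 5.93%), while none rose (DESeq2 also 0, with 0 and 1 at an unadjusted p under 0.05). The fall of UROS ended without siCtrl#1 replicate 2 in both comparisons (adjusted p = 0.0734 and 0.2, edgeR), and that of ALAD without siCtrl#1 replicate 1 or 2 (adjusted p = 0.139 and 0.0559, edgeR). SLC7A11 also belongs to the genes of the amino acid response driven by ATF4. Of 7 other measured genes of that response, SESN2 rose after both depletions (0.76 and 1.06) and CTH, the last enzyme of cysteine synthesis, after Vps28 depletion (0.83), against 10.9% and 6.3% of all genes called higher. The median change of the 7 against siCtrl#1 was 0.227 after Tsg101 and 0.405 after Vps28 depletion. With siCtrl#2 it was 0.301, with all 7 above siCtrl#1 and 0 called, so that the nontargeting siRNAs differed by a similar amount. SESN2 was low in the same siCtrl#1 library as SLC7A11, at 69.5 CPM against 209 and 270 CPM in the others, and its change after Tsg101 depletion was 0.37 without it (adjusted p = 0.187, edgeR). That call was also lost in DESeq2 and without siTsg101#1 or siTsg101#2 replicate 1, and the call of CTH without siCtrl#1 replicate 1 or 2, siVps28#1 replicate 1 or siVps28#2 replicate 2. Against siCtrl#2 both calls were lost (0.68, adjusted p = 0.0636, and 0.50, adjusted p = 0.226, edgeR). The part of the low library in the SLC7A11 values is given by the changes without it.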

How the data were processed

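RNA of the 18 RKO libraries was made into Ion AmpliSeq Transcriptome libraries by the authors, who aligned reads to the panel's hg19 reference and counted them per target with HTSeq 0.6.0. The deposited values are whole, unnormalized read counts. Between 45.4% and 46.68% of reads lay on genes and were used, and 10 spike-in targets were left out. A further 48.23% to 49.07% of reads were assigned to no target, and the cause was not tested. The strand setting is not given in the sources used here. The reads carry no molecular identifiers, and p-values measure the spread between the replicates, which the labels place in separate batches.

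Genes over 100 counts in all were kept (10632), 386 noncoding genes were left out, and the 10246 others were fitted with edgeR 4.0.16 (TMM, quasi-likelihood test, 6 groups in 1 model, Benjamini-Hochberg adjustment over all of them). A call needed an adjusted p under 0.05 and 1.5-fold. Effects of a depletion are means of both siRNAs, and their SE and p-values do not measure the spread between the siRNAs of a pair. The fit was tested on simulated data. No library pair of a group agreed within sampling noise (chi-square per degree of freedom 5.3 to 22.9). Deviations from the group mean had a mean r of 0.145 over 45 library pairs of the same batch number (-0.147 to 0.389). Over 90 other pairs it was -0.073 (-0.354 to 0.29). Centering on the group mean ties these means to each other, so their contrast is no separate evidence of pairing. The main fit held no batch term, which only the replicate block added. CPM correlations used a prior count of 2.

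Members and lists were chosen with earlier results of these data known. Of each list, called genes are named, the 6 with the smallest p with values; some of these genes are not reported here. Alternatives were DESeq2 1.42.0, RLE size factors, no filter, 10 counts in every library, the replicate block, the adjusted p alone, only the groups compared, siCtrl#2 or both nontargeting siRNAs as the reference, and each library left out. Gene positions are of GRCh37, whose overlap was taken over whole transcripts.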

Additional observations from a re-analysis of the deposited data

Results flagged for a closer look

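Among the listed genes that are no members, 6 differed between Tsg101 and Vps28 depletion by the test of the difference itself (edgeR, log2, siTsg101 minus siVps28). FECH was higher after Tsg101 depletion by 1.54 and SOD2 by 0.59. OSGIN1 (-0.72), PIR (-0.71), MAFF (-1.42) and MAFK (-0.67) were lower. By list, 1 of 28 NRF2 targets was higher and 2 were lower, 2 of 13 regulators were lower, and 1 of 16 other antioxidant enzymes was higher. No call fell on the 7 heme synthesis genes or the 7 ATF4 response genes. Of all tested genes 4.12% were called higher and 2.08% lower, so that the calls higher were near the background share. FECH, OSGIN1 and MAFF kept their calls with each library left out. The MAFF means of the Tsg101 siRNAs were unlike, at 2.66 CPM with siTsg101#1 and 0.999 CPM with siTsg101#2. The calls of SOD2, PIR and MAFK rested on single libraries, as given with their values.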

How the results depend on the processing

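The number of members called after each depletion was the same with each library left out, and the calls depended more on the reference. With a library left out, 6 members were called after Tsg101 and 5 after Vps28 depletion each time, and over the other alternatives 4 to 6 and 5 to 6 were called. The lowest count after Tsg101 depletion came with siCtrl#2 as the reference, where NFE2L2 lost both calls and SLC7A11 lost that after Tsg101 depletion. With that reference NFE2L2 also lost its call with each single siRNA, and SLC7A11 with both Tsg101 siRNAs. GCLC gained a call after Vps28 depletion. Between the nontargeting siRNAs the count was 0 with each library left out and 1 (SLC7A11) without the filter on low counts. The difference of HMOX1 between the depletions ranged from -1.04 to -0.96 with a library left out and from -1.01 to -0.998 otherwise. The NRF2 targets called numbered 10 to 11 after Tsg101, 8 to 11 after Vps28 depletion and 2 to 4 between them with a library left out, and 9 between them by the adjusted p alone (2 higher, 7 lower), against 3.

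Directions turned only where the value was close to 0 or not called. GCLC with siVps28#1 was 0.31 against siCtrl#2 and 0.085 against both nontargeting siRNAs, and ranged from -0.37 to 0.10 with a library left out, above 0 without siVps28#1 replicate 3. After Vps28 depletion, EP300 was -0.017 and MAFF -0.27 against siCtrl#2, and MAFK ranged from -0.092 to 0.14 with a library left out. The replicate block left 6 and 5 members called and 10, 9 and 3 NRF2 targets, and beyond the calls given with the values it changed none. The cause of these changes was not tested. MAFF, PIR and GPX3 were read in few counts, which limits their precision.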
